A study of Homo sapiens with 6 samples.

Results

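Transcripts of the cytosolic ribosomal protein genes were compared between 3 RNA sequencing libraries of Jurkat cells that overexpress an isoform of PDCD1 (genotype label PDCD1 28 OE, here OE) and 3 libraries of Jurkat cells with the vector. Members were rows whose gene symbol begins with RPS or RPL and has the form of a ribosomal protein name, with RPLP0, RPLP1, RPLP2 and RPSA and without pseudogenes. They numbered 84 of the 59248 rows, 32 of the small and 52 of the large ribosomal subunit. Of these, 77 are canonical proteins of the ribosome and 7 are paralogs at separate genes (RPL3L, RPL7L1, RPL10L, RPL22L1, RPL26L1, RPL39L and RPS27L). Jurkat is an established human T-cell leukemia line. Both groups share a growth protocol that names them Jurkat KO-1; what KO-1 stands for is not given. PDCD1 encodes the inhibitory receptor PD-1, and the isoform keeps a short stretch of an intron. The labels do not say whether the lines were clones or pools, nor whether replicates were separate cultures, so the p-values cover the spread among these 6 libraries and no more, and that spread may be technical.

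The ribosome is built of a small subunit, which reads the mRNA, and a large subunit, which joins amino acids, and nearly all of their proteins are needed in equal amounts. Ribosomal protein mRNAs are among the most abundant in growing cells. Most begin with a C and a run of pyrimidines, the terminal oligopyrimidine or TOP sequence, through which LARP1 and the mTOR pathway control their translation. In T cells ribosome production rises with activation and growth, and RPL5, RPL10, RPL11 and RPL22 are recurrently altered in T-cell leukemia.

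TOP sequences and their surroundings are shown for the 4 members with the largest rises and the 4 with the largest falls among those with a RefSeq promoter entry, to show what the starts of members that moved in opposite directions look like. Each window holds 10 bases before the annotated start and 20 from it on (RefSeq, GRCh38.p14, gene strand, 5′ to 3′). Capitals mark the pyrimidine run, counted onward from the C nearest the annotated start that begins a run of at least 5. Pyrimidines directly before that C stay in lower case, so the full pyrimidine stretch can be longer.
RPLP2, chr11:809957-809986, plus strand: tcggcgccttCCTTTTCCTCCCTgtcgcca
RPL36, chr19:5690285-5690314, plus strand: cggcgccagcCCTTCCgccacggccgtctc
RPL28, chr19:55385922-55385951, plus strand: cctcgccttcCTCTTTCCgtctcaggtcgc
RPS26, chr12:56041908-56041937, plus strand: acataacctcgattttCTTCCgccatccgg
RPL7L1, chr6:42879606-42879635, plus strand: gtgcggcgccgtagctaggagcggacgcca
RPS29, chr14:49598691-49598720, minus strand: agcgcgcagctggcagcggtggttgtttct
RPL31, chr2:101002279-101002308, plus strand: ccttcgcgctCTTCCTTTCCaacttggacg
RPL7A, chr9:133348208-133348237, plus strand: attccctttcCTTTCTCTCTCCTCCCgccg
The windows of RPLP2, RPL36, RPL28 and RPS26, which rose in OE, and those of RPL31 and RPL7A, which fell, each held such a run. The windows of RPL7L1 and RPS29, which also fell, held none. The annotated start need not be the start used in these cells, so a window without a run does not show that the mRNA lacks one.

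The libraries held 62635749, 72314037 and 61486369 estimated counts in OE and 59911578, 84220970 and 69825013 in vector. PDCD1 was at 13.8 ± 1.03 CPM in OE and 0.229 ± 0.011 CPM in vector (SD, n = 3 each). CPM are estimated counts scaled to a common library size after TMM normalization. All 9 T-lineage and Jurkat markers looked up, among them CD3E and TAL1, were expressed. Their sum was 2802 to 2835 CPM in OE and 3048 to 3256 CPM in vector. They were not level between the groups: 5 of the 9 were called lower in OE (55.6%) and 2 higher (22.2%). Their log2 fold changes ran from -2.09 to 0.29. Markers of B cells summed to 1.02 to 1.42 CPM in OE and 0.379 to 0.503 CPM in vector, and those of myeloid cells to 0.457 to 0.641 CPM in OE and 0.118 to 0.335 CPM in vector. The 2 erythroid markers summed to at most 0.108 CPM in OE and 0.399 CPM in vector, and the 3 epithelial markers summed to at most 0.0156 CPM in any OE library and 0.062 CPM in any vector library. Of all 21055 genes tested with edgeR's quasi-likelihood test, 46.1% passed an adjusted p of 0.05, 22.6% higher and 23.4% lower in OE.

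Vector replicate 2 stood apart from the other libraries, in these genes and over the table. Over 11225 genes the chi-square per degree of freedom, on counts divided by 4, was 19.0 and 21.4 between it and vector replicates 1 and 3, and 2.89 to 3.44 for the other pairs within a group. In the members it had the highest CPM of the 3 vector libraries in 77 of 77 canonical members, with a median of 14.1% above the mean of vector replicates 1 and 3 (range 5.67% to 28.6%). Among 3846 other genes tested at no less than the lowest canonical mean count, it was the highest in 41.0%, and the median difference was -1.15%. It was also the deepest library. The median coefficient of variation over the canonical members was 2.16% in OE and 7.84% in vector. Over those 3846 other genes it was 2.91% in OE and 5.32% in vector. The counts of calls are therefore also given without that library. What sets it apart was not tested.

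The ribosomal protein genes did not move as 1 block: single members rose and others fell, mostly by small amounts. Of 84 members, 83 passed the filter on low counts, and RPL10L did not. In OE, 14 members were higher and 26 lower, or 16.9% and 31.3% of the 83, against 22.6% and 23.4% of all genes tested. The share called in either direction, 48.2%, was near the 46.1% of all genes. Among the 3924 genes at or above the lowest canonical mean count, 67.6% were called, 20.8% higher and 46.8% lower. These are nearer to the members in abundance but not alike in precision. The median coefficient of variation in vector was 5.32% for those outside the members, against 7.84% for canonical members. All OE libraries lay above all vector libraries in 16 members and below them in 32, or 57.8% without overlap, against 30.1% and 28.6% and a sum of 58.7% of all genes. In bulk RNA, fewer cells of a kind and less RNA per cell cannot be told apart. The median log2 fold change was -0.07 for the members and 0.02 for all genes. Calls with a change of at least 1.5-fold were made for 6 of the 83 members (7.23%), against 25.4% of all genes tested and 17.2% of those 3924. Without vector replicate 2 the counts were 27 higher and 28 lower, where all genes tested gave 24.1% and 25.4%, and the median was -0.0025. The share of the abundant genes called in that fit was not counted. Without OE replicate 2 or 3, or without vector replicate 1 or 3, 9 members were higher. The share of all genes called in those fits was not counted, so that count cannot be read as particular to the members. When the dependence of each library on GC content and transcript length was taken out, they were 7 higher and 50 lower, where all genes gave 23.1% and 23.9%, so the balance of rises and falls depended on both choices.

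A smaller set was called the same way in each of the 17 fits made. In these fits 6 members were higher in OE, among them RPS26, RPL36, RPL37, RPLP2 and RPL39L. In the same 17 fits 18 members were lower, among them RPS3, RPS6, RPS7, RPS12, RPS13, RPS18, RPS27A, RPS29, RPL5, RPL6, RPL7, RPL7A, RPL7L1, RPL23A, RPL24, RPL31 and RPL35A. Another 6 (RPL9, RPL23, RPS23, RPS28 and the paralogs RPS27L and RPL3L) passed in none of the fits. Of all genes tested, 13.7% were higher and 15.9% lower in every fit, and of the 3924 abundant genes 15.5% and 38.0%, against 7.23% and 21.7% of the members. RPS21, a small subunit gene named after its values were seen, was called higher without vector replicate 2 (log2 fold change 0.12, edgeR adjusted p = 0.0495) and lower with GC and length trends taken out (-0.21, adjusted p = 0.0327).

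**Figure D1:**
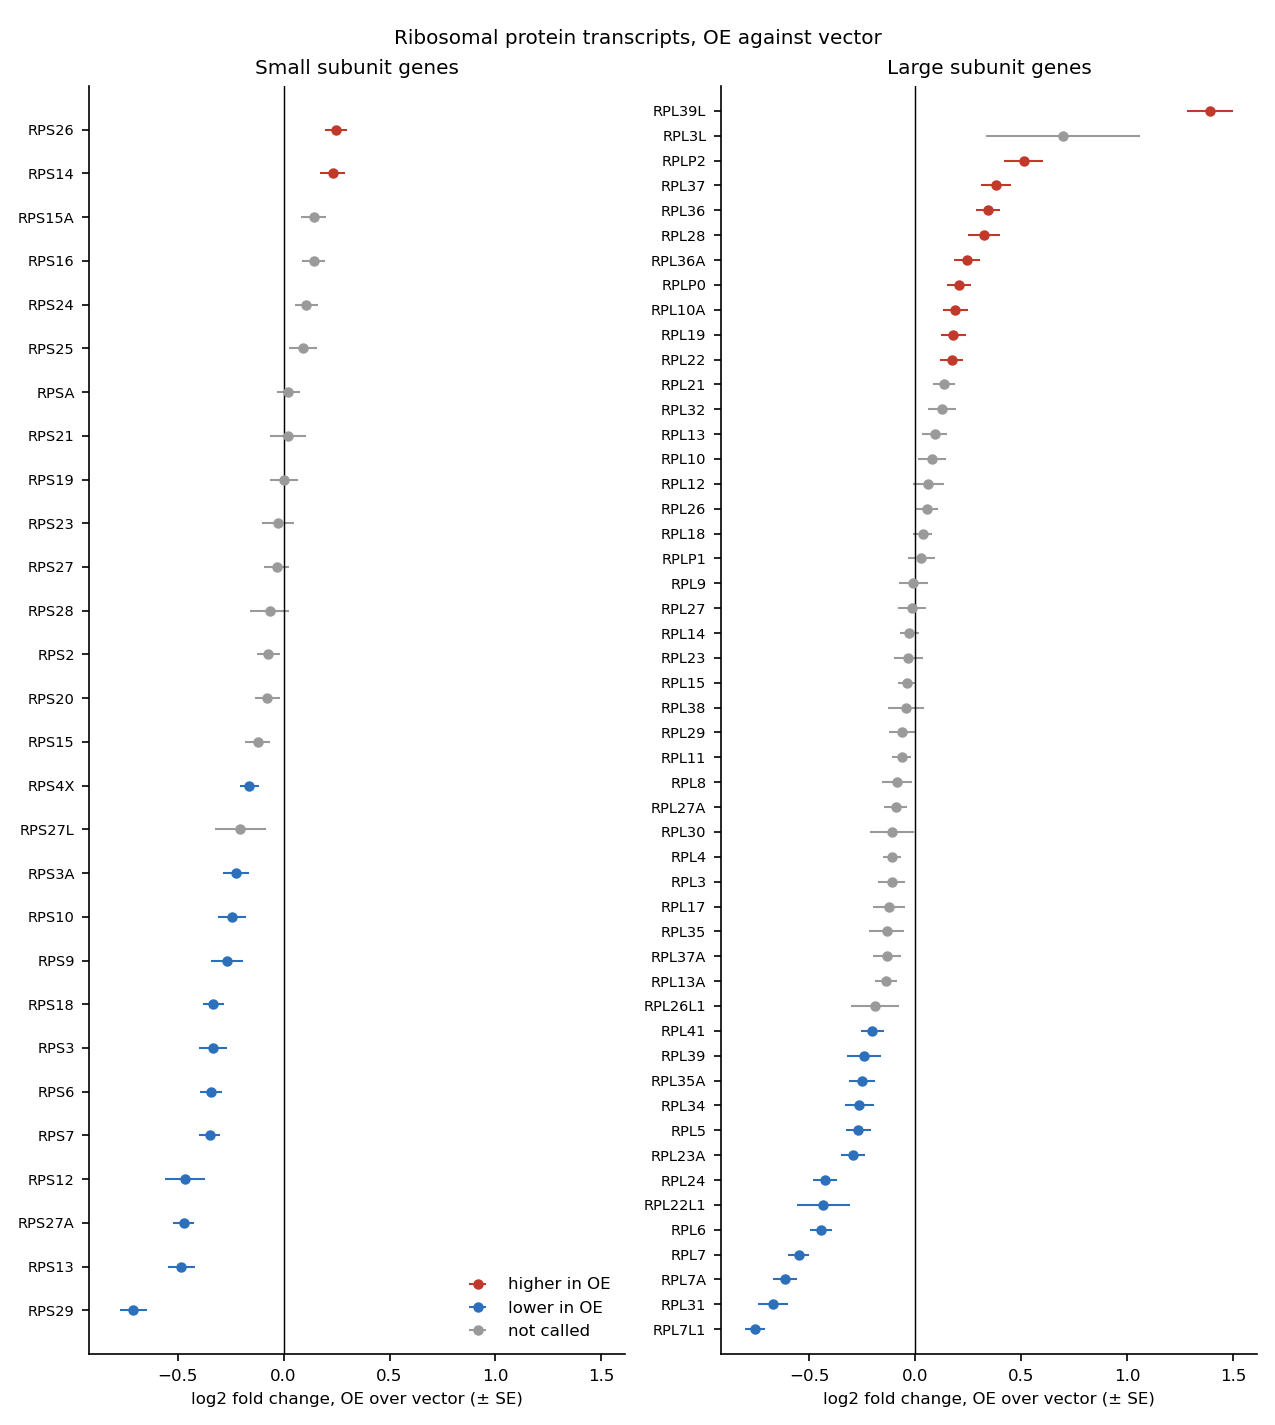
Fitted log2 fold change of OE over vector with its standard error for 78 of the 83 members tested, small subunit left and large subunit right, coloured by the edgeR call. Most members lie within 0.5 of 0, from RPL7L1 at -0.75 to RPL39L at 1.39.

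Between the subunits, summed transcripts of the large subunit were slightly higher relative to those of the small subunit in each OE library. The log2 ratio of large to small subunit counts was 0.690, 0.683 and 0.686 in OE, against 0.655, 0.658 and 0.655 in vector. The groups did not overlap, and the difference of 0.030 was larger than the SD of 0.0035 in OE and 0.0018 in vector. The exact two-sided permutation test gave p = 0.1, the smallest that 3 libraries against 3 allow, and 0.5 after Benjamini-Hochberg adjustment over 5 summary values. The difference was 0.031 without vector replicate 2, and 0.087 when the mean of log2 CPM over members took the place of summed counts. By single genes, 4 small subunit genes were higher (12.5%) and 13 lower (40.6%) of 32 tested, with a median log2 fold change of -0.07. Of 51 large subunit genes tested, 10 were higher (19.6%) and 13 lower (25.5%), with a median of -0.06. Among all genes tested 22.6% were higher and 23.4% lower, and among the 3924 abundant genes 20.8% and 46.8%. Without vector replicate 2 the small subunit had 11 higher and 13 lower, and the large subunit 16 higher and 15 lower. All genes tested then gave 24.1% higher and 25.4% lower. Whether the subunits differ in these counts was not tested.

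The direction of the summed shares depended on the scaling. As shares of total counts they overlapped between the groups. Small subunit genes held 1.72%, 1.75% and 1.75% of counts in OE, against 1.70%, 1.89% and 1.66% in vector (exact permutation p = 1.0, adjusted p = 1.0). Large subunit genes held 2.77%, 2.81% and 2.81% in OE, against 2.67%, 2.98% and 2.62% in vector (exact permutation p = 0.9, adjusted p = 1.0). In both of these raw shares vector replicate 2 lay above all OE libraries and the other vector libraries lay below them. The difference, OE minus vector, was -0.0128 percentage points for the small subunit, or 0.0561 without vector replicate 2. On the TMM-adjusted totals that underlie the CPM, an alternative chosen after seeing the data, all members together held 4.33%, 4.43% and 4.38% in OE, against 4.52%, 5.08% and 4.43% in vector, and the groups overlapped. On that scale the differences were -0.296 percentage points for all members, -0.137 for the small and -0.159 for the large subunit, and -0.0928, -0.0585 and -0.0343 without vector replicate 2. The small subunit alone did not overlap there, at 1.66% to 1.70% in OE and 1.72% to 1.97% in vector (exact permutation p = 0.1, the smallest possible).

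**Figure D2:**
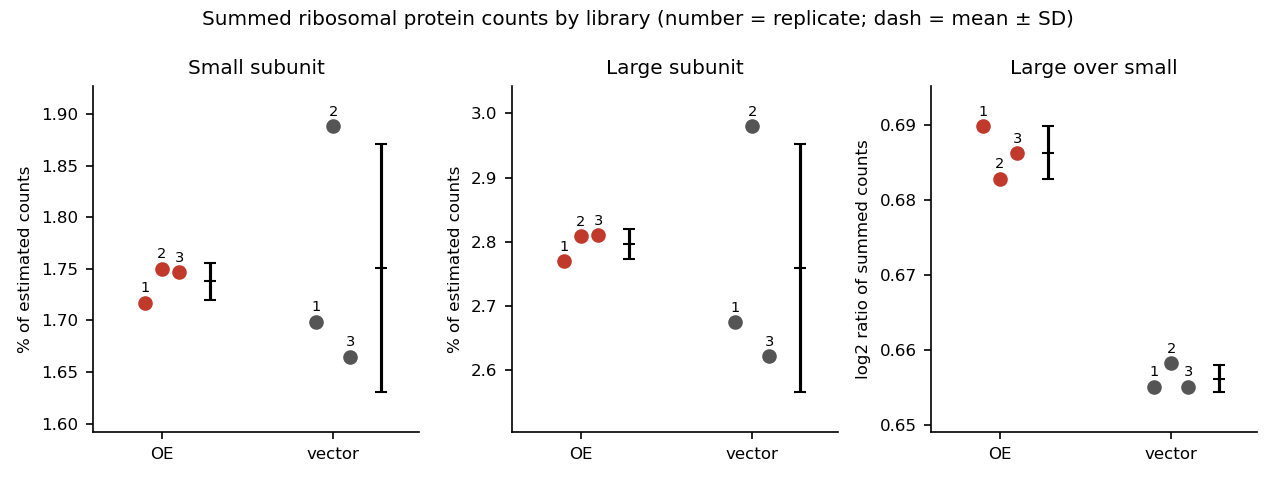
Percentage of estimated counts in small and large subunit genes, and the log2 ratio of their sums, in each OE and vector library (points numbered by replicate) with mean ± SD (n = 3). In both shares of total counts vector library 2 is highest and the groups overlap, whereas the ratio is 0.683 to 0.690 in OE and 0.655 to 0.658 in vector.

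Of the large subunit, the stalk proteins did not move alike. The stalk recruits translation factors and consists of RPLP0 and the acidic proteins RPLP1 and RPLP2. RPLP2 (chromosome 11, 809647 to 812880, GRCh38) had 388, 423 and 423 CPM in OE, against 271, 334 and 261 CPM in vector. Every OE library lay above every vector library, with a log2 fold change of 0.51 ± 0.09 (SE; edgeR adjusted p = 0.00248). RPLP1, its partner in the stalk, had 404, 438 and 428 CPM in OE, against 403, 452 and 389.6 CPM in vector, and the groups overlapped (log2 fold change 0.03 ± 0.06, adjusted p = 0.731). RPLP0, the base of the stalk, had 1742, 1757 and 1815 CPM in OE, against 1477, 1676 and 1450.5 CPM in vector. Its log2 fold change was 0.21 ± 0.06 (adjusted p = 0.02). That call was lost in 5 of the 6 fits that left out 1 library, all but the one without vector replicate 2, with adjusted p from 0.0572 to 0.0926.

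Other large subunit members with the largest rises were RPL37, RPL36, RPL28 and RPL36A. RPL37 had 224, 217 and 221 CPM in OE, against 162, 189 and 157 CPM in vector (log2 fold change 0.38 ± 0.07, edgeR adjusted p = 0.00267). RPL36 had 195, 197 and 195 CPM in OE, against 149, 166 and 147 CPM in vector (0.34 ± 0.06, adjusted p = 0.00141). RPL28 had 439, 438 and 419.7 CPM in OE, against 329, 389 and 317 CPM in vector (0.33 ± 0.08, adjusted p = 0.00888). In all 3 genes the lowest OE library lay above the highest vector library, which was replicate 2. RPL36A, which lies at the exit site for tRNA, averaged 174 ± 1.78 CPM in OE and 147 ± 11.3 CPM in vector (SD, n = 3 each; edgeR adjusted p = 0.0105). The calls of RPL28 and RPL36A were lost with GC and length trends taken out (log2 fold change 0.12 and 0.13, adjusted p = 0.126 and 0.12). RPL10A, RPL19 and RPL22 were the other large subunit genes called higher, each with a log2 fold change under 0.20. RPL10A was called in 10 and RPL19 in 9 of 17 fits, and with GC and length trends taken out their log2 fold changes were 0.03 and 0.01 (adjusted p = 0.654 and 0.877).

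The largest falls among large subunit proteins were in RPL31, RPL7A and RPL7. RPL31, a protein at the exit of the peptide tunnel (chromosome 2, 101001715 to 101024032), had 210.3, 219.7 and 227 CPM in OE, against 342, 384 and 320.3 CPM in vector. RPL7A (chromosome 9, 133348214 to 133351426) had 853, 884 and 896 CPM in OE, against 1308, 1459 and 1265 CPM in vector. RPL7 had 841, 871 and 829 CPM in OE, against 1187, 1319 and 1213 CPM in vector. Each of these genes was lower in every OE library than in any vector library, with log2 fold changes of -0.67 ± 0.07, -0.61 ± 0.06 and -0.55 ± 0.05 (edgeR adjusted p = 0.000149, 8.96e-05 and 7.52e-05). RPL6, RPL24, RPL23A, RPL34, RPL35A, RPL39 and RPL41 were also lower, of which RPL34 was called in 15 and RPL41 in 12 of 17 fits. The pseudogene rows of RPL41 amounted to 34.1% of its counts in OE and 18.9% in vector, and with them added its log2 fold change was -0.03 (edgeR adjusted p = 0.702).

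RPL5 and RPL11 carry the 5S rRNA into the large subunit and, when free of it, bind the p53 regulator MDM2. RPL5 had 883, 901 and 867 CPM in OE, against 1017, 1168 and 1006 CPM in vector, without overlap (log2 fold change -0.27 ± 0.06, edgeR adjusted p = 0.00792). RPL11 had 452, 476 and 461 CPM in OE, against 469, 506 and 477 CPM in vector, with overlapping groups (-0.06 ± 0.05, adjusted p = 0.293; -0.19 and adjusted p = 0.00454 with GC and length trends taken out). RPL10, a large subunit protein needed to join the subunits, had 973, 992 and 1002 CPM in OE, against 903, 1037 and 864 CPM in vector (0.08 ± 0.07, adjusted p = 0.352). Without vector replicate 2 RPL10 was called higher (0.15, adjusted p = 0.00215).

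In the small subunit RPS26 and RPS14 were among the genes that rose, and RPS29, RPS13 and RPS27A were among those that fell. RPS26, which lines the path by which mRNA leaves the ribosome, had 253, 259 and 259 CPM in OE, against 211, 231 and 206 CPM in vector (0.25 ± 0.05, adjusted p = 0.00504). RPS14 was higher with a log2 fold change of 0.23 ± 0.06 (edgeR adjusted p = 0.014), was called in 12 of 17 fits and was at 0.05 (adjusted p = 0.388) with GC and length trends taken out. In both genes all OE libraries were above all vector libraries.

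RPS29, a protein of the head of the small subunit, had 51.7, 52.1 and 50.8 CPM in OE, against 81.3, 91.8 and 79.9 CPM in vector. The OE libraries of RPS29 lay within a narrow range below all vector libraries, with a log2 fold change of -0.71 ± 0.06 (edgeR adjusted p = 6.86e-05). RPS13 had 278, 294 and 286 CPM in OE, against 382, 440.0 and 378 CPM in vector (-0.48 ± 0.06, adjusted p = 0.000529). RPS27A, which is made as a fusion with ubiquitin, had 298, 318 and 309 CPM in OE, against 424, 447 and 411 CPM in vector (-0.47 ± 0.05, adjusted p = 0.00014). RPS6, the substrate of S6 kinase, had 1108, 1139.6 and 1124 CPM in OE, against 1382, 1533 and 1355 CPM in vector (-0.34 ± 0.05, adjusted p = 0.00111). RPS3, RPS3A, RPS4X, RPS7, RPS9, RPS10, RPS12 and RPS18 were also among the 13 lower small subunit genes. RPS19, the gene most often mutated in Diamond-Blackfan anemia, averaged 601 ± 16.2 CPM in OE and 599 ± 55.3 CPM in vector, with a log2 fold change of 0.004 ± 0.066. RPSA, which is also known as a laminin receptor, averaged 1303 ± 15.4 CPM in OE and 1283 ± 95.5 CPM in vector. The signs of the RPS19, RPSA and RPLP1 values, none of which was called, turned in some alternative fits. In all, 40 canonical members were not called, with log2 fold changes from -0.15 to 0.14. A p that misses the threshold does not show that their levels were equal.

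**Figure D3:**
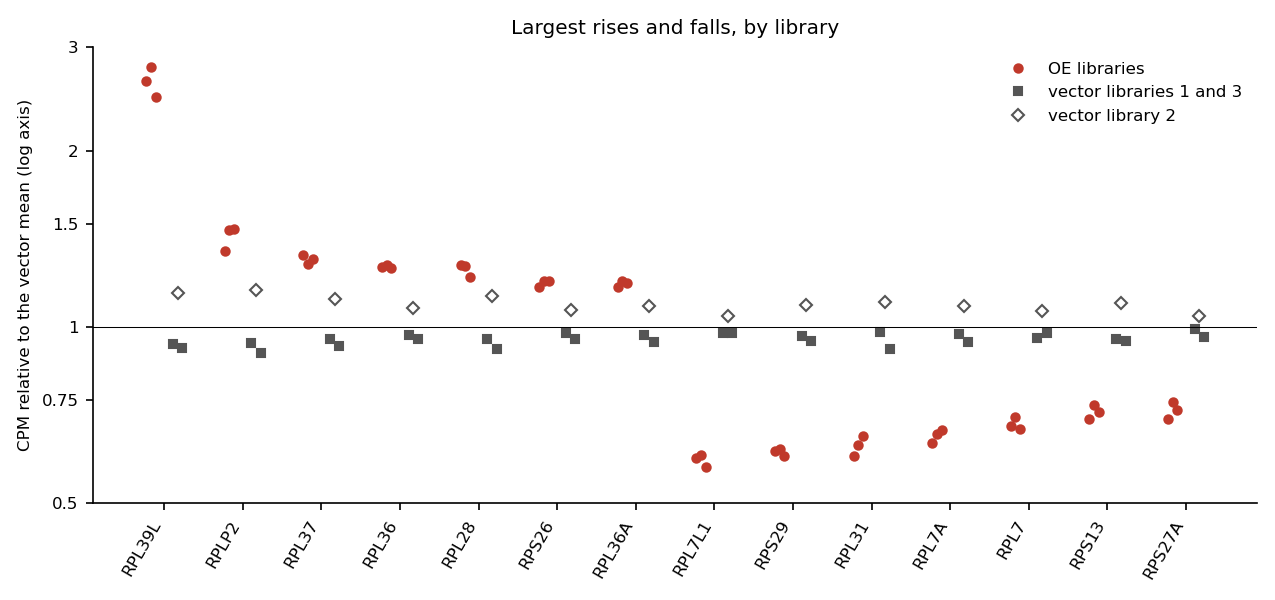
CPM in each library relative to the gene's vector mean, on a log axis, for 7 members with large rises and 7 with large falls, with OE left of vector for each gene. Vector library 2 (open diamonds) is the highest vector library of each gene, and no OE library overlaps a vector library.

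Each paralog that the rule takes in was at a lower level than its parent gene, and the paralogs moved in both directions. RPL39L, the paralog of the tunnel protein RPL39, had 31.6, 33.4 and 29.7 CPM in OE, against 11.3, 13.8 and 11.1 CPM in vector. It had the largest rise of all members, 2.62-fold (log2 fold change 1.39 ± 0.11, edgeR adjusted p = 3.44e-05). RPL39 itself had 103, 96.3 and 103 CPM in OE, against 113, 135 and 111 CPM in vector (-0.24 ± 0.08, adjusted p = 0.0384). The RPL39 call was lost in 6 alternatives, with adjusted p up to 0.14. The log2 ratio of RPL39L to RPL39 was -1.71, -1.53 and -1.80 in OE, against -3.32, -3.29 and -3.32 in vector, so that in every OE library RPL39L held a larger part of the pair.

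RPL22L1 moved the other way. RPL22L1, the paralog of RPL22, a protein needed in developing T cells, had 7.65, 8.28 and 9.12 CPM in OE, against 10.5, 12.1 and 11.2 CPM in vector (log2 fold change -0.43 ± 0.13, edgeR adjusted p = 0.0217). RPL22 had 334, 351 and 339.5 CPM in OE, against 286, 323 and 300.1 CPM in vector (0.17 ± 0.05, adjusted p = 0.0295). Both calls were near the threshold: that of RPL22L1 was lost in 3 of the fits without 1 library and that of RPL22 in 5 of them. Their log2 ratio was -5.45, -5.41 and -5.22 in OE, against -4.77, -4.73 and -4.74 in vector, without overlap.

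RPL7L1, which belongs to ribosome assembly rather than to the finished ribosome, had 176, 177 and 169 CPM in OE, against 287, 306 and 287 CPM in vector, the largest fall of all members tested (log2 fold change -0.75 ± 0.05, edgeR adjusted p = 1.26e-05). RPL26L1 averaged 18.5 ± 2.09 CPM in OE and 21.1 ± 2.07 CPM in vector, and its parent RPL26 462 ± 13.4 CPM in OE and 445 ± 28.2 CPM in vector; neither was called (edgeR adjusted p = 0.212 and 0.445). RPS27L, a p53 target, averaged 13.4 ± 1.27 CPM in OE and 15.4 ± 1.49 CPM in vector, and RPS27 154 ± 6.02 CPM in OE and 158 ± 10.8 CPM in vector; neither was called either (adjusted p = 0.197 and 0.693). RPL3L, known from muscle, had 26, 51 and 33 estimated counts in OE, against 19, 27 and 22 in vector, and was not called, while RPL3 averaged 1438 ± 18.5 CPM in OE and 1553 ± 137 CPM in vector. RPL10L, known from testis, had 0 estimated counts in each OE library and 1 in each vector library, under a floor of 12. Of 6 paralog to parent ratios tested, 5 did not overlap between the groups; each of these had an exact permutation p = 0.1, the smallest possible, and an adjusted p = 0.12.

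Levels of the canonical members per kilobase of transcript spanned a wide range. Averaged over the 6 libraries, RPS3A (1604 CPM per kilobase), RPLP0 (1495), RPS2 (1456), RPL7A (1414) and RPL13A (1365) were highest. RPS28 (86.7 CPM per kilobase), RPS29 (100.3) and RPL35A (121) were lowest, with a median of 633 over the 77. RPS3A had a log2 fold change of -0.22 ± 0.06 (edgeR adjusted p = 0.0178; not called in 4 alternatives), RPS2 of -0.07 ± 0.06 and RPL13A of -0.14 ± 0.05 (adjusted p = 0.327 and 0.0579). RPL13A passed in 5 alternatives. RPL35A, among the lowest, had 133, 140.0 and 136 CPM in OE, against 155, 176 and 156 CPM in vector (-0.25 ± 0.06, adjusted p = 0.00939), and RPS28 averaged 112 ± 4.09 CPM in OE and 118 ± 16.1 CPM in vector. These levels rest on annotated lengths, 1326 bases for RPS28 and 677 for RPS29, which need not be those of the transcripts in these cells.

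Over the 77 canonical members, the log2 fold change had Spearman correlations of 0.001 with transcript length, 0.25 with GC content and -0.05 with mean count. These points share their libraries and their scaling. Pseudogene rows named after members, 1304 in all, held 0.102% ± 0.00219 of counts in OE and 0.0955% ± 0.00431 in vector (SD, n = 3 each; exact permutation p = 0.2, adjusted p = 0.5). Relative to the parent, they amounted to 31.1% of RPL9, 25.9% of RPL41, 19.9% of RPS2, 10.7% of RPS28 and 9.28% of RPL23A, and to over 5% in 8 members in all, whose levels are uncertain to that extent. When their counts were added to the parents, 13 members were higher and 25 lower. The share of all genes called in that fit was not counted. A readthrough row joins RPL17 to its neighbour, and it averaged 24.8 ± 10.1 CPM in OE and 75.1 ± 11.4 CPM in vector, so reads of RPL17 may be split between the rows. Another joins RPS10 to its neighbour, with 27.4, 23.6 and 95.5 CPM in OE, against 13.5, 44.2 and 25.6 CPM in vector (edgeR adjusted p = 0.291). Reads of RPS10, which was called lower, may be split in the same way, and its fall with that row added was not tested.

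Some members lay where neighbouring genes were lower too. For each canonical member the median log2 fold change of the 40 nearest tested coding genes was taken. It was -0.3 or lower for 8 members: RPS7 and RPL31 on chromosome 2, RPS12 on chromosome 6, RPS20 on chromosome 8, RPS6, RPL35 and RPL7A on chromosome 9 and RPLP2 on chromosome 11. Of these 5 were lower and 1 higher, with a median of -0.34. The neighbours of RPL7A had a median of -0.54 and those of RPL31 of -0.40, next to -0.61 and -0.67 for the genes themselves. RPLP2 rose where its neighbours had a median of -0.38. Among the 63 members with neighbours between -0.3 and 0.2, 11 were higher and 16 lower; RPS29 fell where the median was -0.03. Of 6 members with neighbours at or over 0.2, 3 were lower and 1 higher, with RPS3A, RPS18 and RPS10 lower beside neighbours that were higher. Of all canonical members 31.2% were lower and 16.9% higher. Among all genes tested these shares were 23.4% and 22.6%, and among the 3924 abundant genes 46.8% and 20.8%. Whether the counts by neighbourhood differ from these shares was not tested. Across the 77 members the Spearman correlation with the neighbours' median was 0.12. The part of the neighbourhood in the falls on chromosomes 2, 6 and 9 was not tested.

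**Figure D4:**
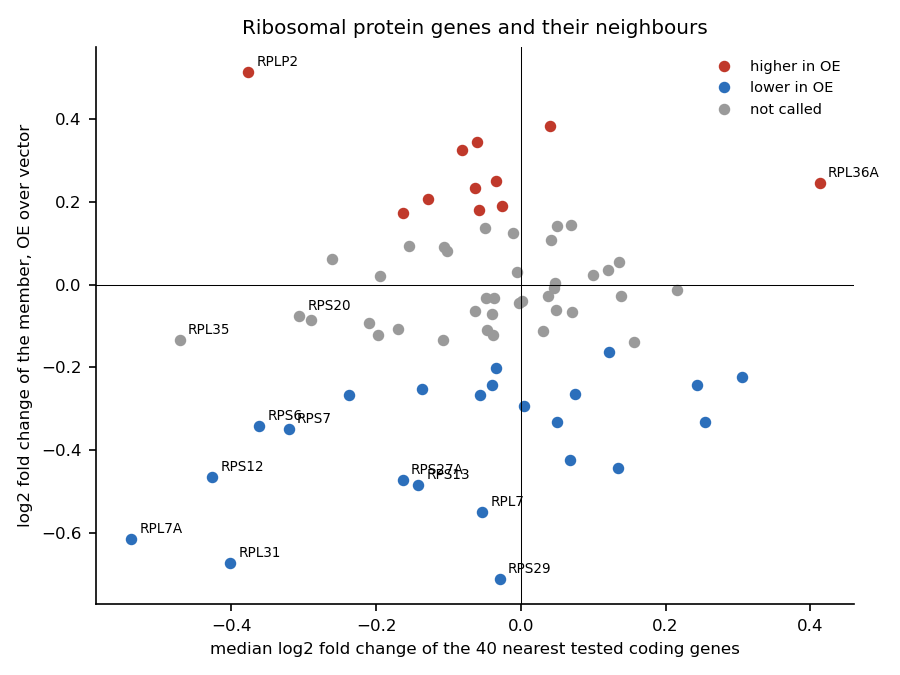
Log2 fold change of 72 canonical members (OE over vector) against the median of its 40 nearest tested coding genes, coloured by the edgeR call. RPL7A and RPL31 fell beside low neighbours, RPLP2 rose beside low neighbours, and RPS29 fell where the neighbours' median was near 0.

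Promoter windows in RefSeq, from 250 bases before to 50 after the start, matched 67 of the 84 members. RPS2, RPS15A, RPS20, RPL3L, RPL5, RPL7, RPL8, RPL23, RPL23A, RPL30, RPL37 and RPL39L were among those with no entry. A pyrimidine run of at least 5 that begins with C within 10 bases of the start was present in 55 of 62 canonical members (88.7%) and in 1 of 5 paralogs, RPL22L1, against 33.5% of all 35116 promoters in the table and 34.1% of the 17419 of tested genes. It was present in 10 of 10 members called higher, 18 of 22 called lower and 28 of 34 not called. The ETS family core CCGGAAG, on either strand, was in 21 of 62 canonical members (33.9%), against 10.3% of all promoters and 15.5% of those of tested genes. The YY1-type core ATGGCGG was in 12 (19.4%), against 5.55% and 8.46%. TATAAA on the gene's strand was in 2 of the 62 (3.23%) before the start, against 6.80% and 4.08%. The ETS core was found in 3 of 10 members called higher and 9 of 22 called lower, so it occurred on both sides. RPLP2, which rose, and RPL31, which fell, both hold it, shown here in capitals in 70 bases each, on the gene's plus strand.
RPLP2, chr11:809729-809798: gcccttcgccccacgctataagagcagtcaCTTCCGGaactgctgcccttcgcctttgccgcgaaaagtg
RPL31, chr2:101002206-101002275: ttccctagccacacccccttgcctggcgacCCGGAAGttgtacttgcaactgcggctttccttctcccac
In RPLP2 the core stands on the opposite strand. Letters in these windows describe the sequence and not its use by a factor. The annotated starts need not be those used in these cells.

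In 3 of 4 lists of genes that work around the ribosome, more genes fell than rose. Of 4 ribosomal protein genes that the rule leaves out, FAU, RPL36AL and RACK1 among them, only RPL36AL was called, at 56.9 ± 3.51 CPM in OE and 45.5 ± 2.08 CPM in vector (n = 3 each, SD), with a log2 fold change of 0.32 ± 0.07 (edgeR adjusted p = 0.00444). Of 19 translation factor and other genes whose mRNAs carry TOP sequences, 10 were lower (52.6%) and 1 higher (5.26%), where 23.4% and 22.6% of all genes and 46.8% and 20.8% of the 3924 abundant genes were. NACA, the alpha chain of the complex that binds nascent chains, averaged 398 ± 11.4 CPM in OE and 544 ± 19.7 CPM in vector (-0.45 ± 0.05, adjusted p = 0.000121). EIF3L, a subunit of initiation factor 3, averaged 316 ± 4.24 CPM in OE and 436 ± 23.0 CPM in vector (-0.46 ± 0.05, adjusted p = 0.000151). EIF3H, of the same factor, averaged 266 ± 11.3 CPM in OE and 235 ± 4.65 CPM in vector and was the gene called higher (0.18 ± 0.05, adjusted p = 0.0131; 0.0613 without OE replicate 2 and 0.0589 without vector replicate 1).

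Of 13 regulators of TOP mRNAs, 7 were lower (53.8%) and 2 higher (15.4%). Among all genes tested 23.4% were lower and 22.6% higher, and among the 3924 abundant genes 46.8% and 20.8%. LARP1, which binds the TOP sequence, averaged 310.3 ± 0.525 CPM in OE and 552 ± 30.6 CPM in vector (log2 fold change -0.83 ± 0.05, edgeR adjusted p = 1.02e-05). LARP4, which binds the poly(A) tail, averaged 110.5 ± 4.65 CPM in OE and 167 ± 6.46 CPM in vector (-0.60 ± 0.05, adjusted p = 6.28e-05). EIF4EBP1, an inhibitor of cap-dependent initiation that mTOR inactivates, averaged 49.0 ± 1.28 CPM in OE and 25.1 ± 2.15 CPM in vector (0.97 ± 0.07, adjusted p = 3.45e-05). TSC2, a brake on mTOR, averaged 153 ± 7.90 CPM in OE and 121 ± 2.52 CPM in vector (0.35 ± 0.05, adjusted p = 0.000935). TSC1, its partner, named here after its values were seen, averaged 82.0 ± 2.91 CPM in OE and 119 ± 9.53 CPM in vector and was lower (-0.53 ± 0.07, adjusted p = 0.000366).

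Of 10 genes of carriers and assembly factors that bring ribosomal proteins into the pre-ribosome, 8 were lower (80.0%) and 1 higher (10.0%). The shares were 23.4% and 22.6% of all genes tested and 46.8% and 20.8% of the 3924 abundant genes. The median log2 fold change was -0.57 for the 10 genes, 0.02 for all genes tested and -0.14 for the abundant genes. HEATR3, the carrier of RPL5, averaged 48.1 ± 1.47 CPM in OE and 78.7 ± 2.38 CPM in vector (-0.71 ± 0.05, edgeR adjusted p = 2.38e-05). BCCIP averaged 68.7 ± 2.34 CPM in OE and 114 ± 3.10 CPM in vector (-0.73 ± 0.05, adjusted p = 1.65e-05). PDCD2L, a relative of the RPS2 carrier PDCD2, was called higher, at 26.4 ± 0.554 CPM in OE and 21.4 ± 2.27 CPM in vector (0.30 ± 0.09, adjusted p = 0.0265), a call lost in 7 alternatives with adjusted p up to 0.146. Whether these lists differ from the ribosomal protein genes was not tested.

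**Figure D5:**
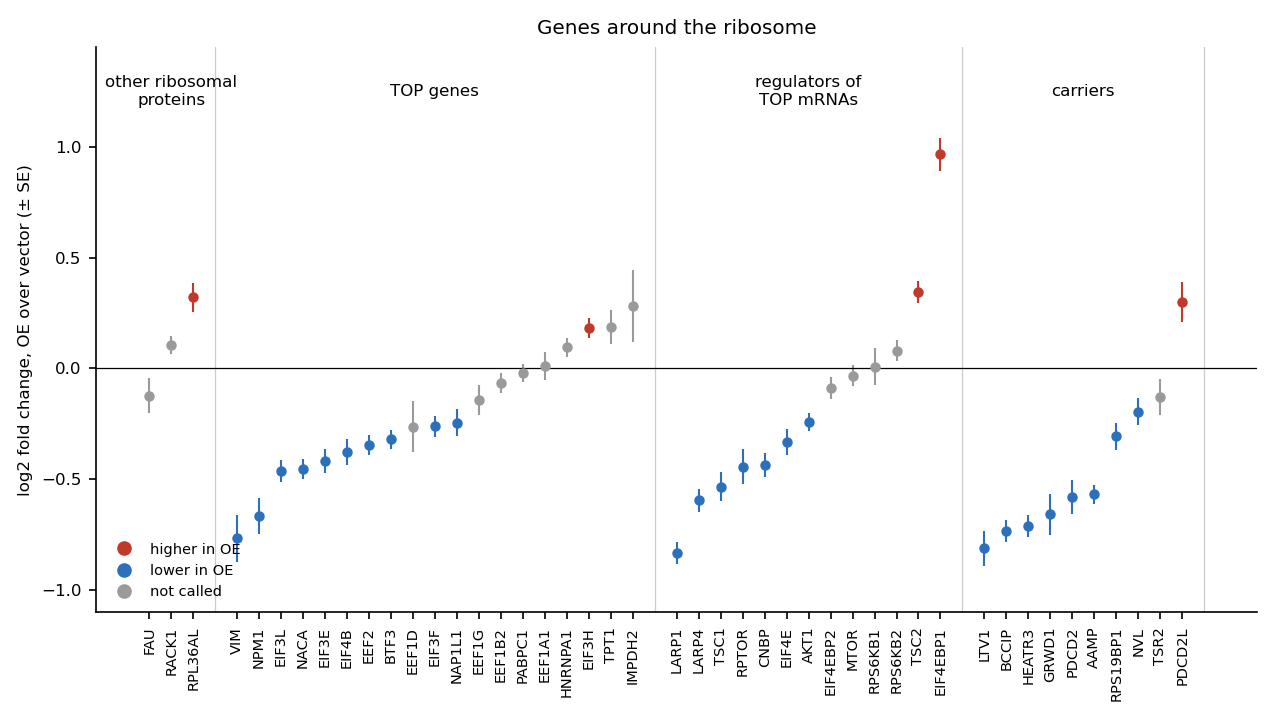
Log2 fold change of OE over vector with its standard error for 45 genes in 4 lists around the ribosome, coloured by the edgeR call. In the carrier list 8 of 10 genes are lower, and LARP1 at -0.83 and EIF4EBP1 at 0.97 lie at the ends of the regulator list.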

How the data were processed

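RNA abundance was measured by sequencing of TruSeq libraries from total RNA, 3 of OE and 3 of vector, grouped by the labels. The deposited table held estimated counts per gene symbol, expected counts as whole numbers and not scaled. Tools named per the submitters' processing notes were DESeq2, StringTie, STAR 2.7.10a and fastp 0.23.2, on hg38. Strand handling, the roles of the tools and the gene annotation are not given in the sources used here. What 1 read pair adds is not settled, so no counting interval is given; the floor of 12 assumes 3 read pairs of 4 estimated counts each.

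All genes were fitted together with edgeR 4.0.16 (R 4.3.3): default expression filter, TMM factors, quasi-likelihood F test on group, Benjamini-Hochberg adjustment, threshold 0.05. Summed values were compared by exact permutation (scipy 1.17.1). The fit was tested on simulated data with far fewer changed genes than were called here. It recovered 13 of 50 genes changed 1.25-fold, 36 of 50 changed 1.5-fold, 41 of 50 changed 2-fold and 50 of 50 changed 4-fold. Of its 150 calls, 10 were false. Changes as small as those of most members were thus mostly missed in that simulation. Positions, GC content and lengths came from GENCODE 29 (GRCh38), which matched 40131 symbols. Members with values were the 8 largest called rises and falls above a mean of 100 estimated counts, the 5 highest and 3 lowest canonical members per kilobase, and a fixed list; from each further list the 2 called genes per direction with the smallest adjusted p were named. Some genes that these rules select entered every fit and count and are not reported here by name, nor drawn. The members and lists were chosen with earlier results of these data known. The 16 alternatives were DESeq2 1.42.0, limma-voom (limma 3.58.1), RLE or upper-quartile factors, no filter, a filter at a mean of 1 CPM and 50 estimated counts, the replicate block, each library left out, division by 4, removal of a GC and length trend, and pseudogene rows added to parents. Figures used matplotlib 3.10.9.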

Additional observations from a re-analysis of the deposited data

How the results depend on the processing

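With GC and length trends taken out, 7 ribosomal protein genes were higher and 50 lower in OE (2 higher in the small subunit, 5 higher and 31 lower in the large), and the median log2 fold changes were -0.21 for all members, -0.22 for the small and -0.20 for the large subunit. Without the low-count filter 6 large subunit genes were higher. Leaving out 1 library at a time gave 9 to 27 members higher. In the small subunit these were 3 to 11 and in the large 6 to 16. Leaving out vector replicate 2 gave the upper end of each range, and 24.1% of all genes tested were then higher. That share was not counted for the other fits without 1 library, nor for the fit without the filter. The cause of these ranges was not tested.

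Differences (OE minus vector, percentage points) turned sign when 1 library was left out. The share of counts in ribosomal protein genes differed by -0.0867 to 0.204, the share of counts in small subunit genes by -0.0556 to 0.0561 and the share of counts in large subunit genes by -0.0310 to 0.148. With mitochondrially encoded genes left out of the total, the small subunit difference was 0.0117. With the TMM-adjusted total, chosen after seeing the data, the share of counts in ribosomal protein genes differed by -0.296, the share of counts in large subunit genes by -0.159 and the share of counts in ribosomal protein pseudogene rows by -2.98e-05. Without 1 library, the log2 ratio of large to small subunit counts, which is not in percentage points, differed by 0.0284 to 0.0319 and kept its sign.

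Of single genes, none of them called with all libraries in edgeR, log2 fold changes without 1 library ran from -0.155 to 0.0384 for RPS28, from -0.0687 to 0.0166 for RPS27, from -0.0209 to 0.0869 for RPLP1, from -0.0156 to 0.0766 for RPSA and from -0.0523 to 0.0722 for RPS19. RPS27 was at 0.0160 with upper-quartile factors. With GC and length trends taken out RPL26 was at -0.0657, RPSA at -0.0826, RPLP1 at -0.197 (edgeR adjusted p = 0.0112) and RPS19 at -0.210 (adjusted p = 0.00691). RPS19 was at -0.0183 with DESeq2, -0.00566 with its size factors in edgeR and -0.00980 without the filter.

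With the replicate number as a block, 14 members were higher and 25 lower, and RPL39 was no longer called (edgeR adjusted p = 0.0745). The share of all genes called in that fit was not counted. Deviations of same-numbered libraries had correlations of 0.0147, 0.00532 and 0.0127, so the numbers were not taken as pairs. Depth limits RPL3L and RPL10L most.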
